A study of Mus musculus with 8 samples.

Results

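The transcripts of 10 NF-κB subunits and inhibitors were followed in bone marrow-derived macrophages (BMDMs) that had or had not engulfed apoptotic cells before an inflammatory stimulus. The 10 genes were chosen by name, and their Ensembl identifiers were looked up in the annotation of the same genome build, which found 10 of 10 among the 55359 genes listed. The subunits are Nfkb1, Nfkb2, Rel, Rela and Relb, and the inhibitors are Nfkbia, Nfkbib, Nfkbie, Nfkbiz and Tnfaip3. All 10 passed the filter of a mean of at least 10 normalized counts over the 8 samples, as did 16309 genes in all.

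NF-κB is a family of dimeric transcription factors that macrophages keep ready in the cytoplasm. In resting cells the dimers are held there by IκB proteins. Bacterial lipopolysaccharide (LPS), sensed by TLR4, activates the IKK kinases, which mark IκB for degradation and so free the dimers to enter the nucleus. Several of the genes that NF-κB switches on encode its own subunits and inhibitors, so that the pathway is known for feedback loops that limit and reshape the response. Efferocytosis is the engulfment of apoptotic cells by Mϕ and is known to damp inflammatory gene expression.

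BMDMs of adult male and female wildtype C57BL/6 mice were differentiated with M-CSF and GM-CSF, for 7 days by the labels. Naïve BMDMs without stimulation formed the group Ctrl, and naïve BMDMs stimulated for 6 h with LPS at 100 ng/mL together with IFNγ at 100 U/mL formed the group LPS. Efferocytic BMDMs were first co-cultured for 16 h with 5 apoptotic NIH-3T3 fibroblasts per Mϕ in the presence of 10 nM dimerizer, a compound that starts cell death in this modified line through caspase-8. They were washed and then left unstimulated (Eff) or given LPS/IFNγ as above (LPSEff). CD45+ cells were sorted magnetically, and each group had n = 2 samples, numbered 1 and 2, on which total RNA sequencing was done. The fibroblasts are mouse cells as well, so reads of their RNA cannot be told apart from reads of the Mϕ by species. LPS and IFNγ were given together, co-culture and dimerizer likewise, and the share of each cannot be told apart.

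The samples held between 3481288 and 12020918 reads on genes, and 3 reads were worth between 1.73 and 5.71 normalized counts. The lowest read number behind any value of the 10 genes was 73, for Nfkbiz in Ctrl replicate 1. Macrophage markers such as Adgre1, Cd68 and Csf1r were present in all samples, with the 9 markers of the list summing to between 87589 and 141316 normalized counts. Most of each sum was Lyz2, at between 54327 and 103975, while C1qa was at between 45.3 and 178. Lymphocyte markers summed to at most 22.0. The files come from bulk RNA, in which fewer cells of a type and less RNA per cell cannot be told apart. The labels do not say that the samples came from separate mice or cultures, so p-values measure the spread between these samples, which may be technical.

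The promoters of the genes are shown first, because many of them are known to be bound by NF-κB itself. The 300 bases before the annotated start of each gene's canonical transcript (GENCODE annotation of GRCm39) were searched on both strands for the kappaB consensus, a 10-base motif that NF-κB dimers bind. It was present in 5 of the 10 promoters, namely those of Nfkbia, Nfkbie, Relb, Rel and Tnfaip3, and in 9.89% of the 12490 promoters of tested protein-coding genes. Among genes called higher in LPS than in Ctrl the share was 13.3% of 1719, and among genes called lower it was 8.65% of 1803. Nfkbia held 2 matches, as did 1.39% of all promoters searched when 2 or more are counted. A match is a run of letters and not a measured binding site, and the promoters without one lack only these letters in this window. The stretches that hold the matches are printed 5′ to 3′ on the strand of the gene, with the match in capitals. They lie on GRCm39 at chr12:55539433-55539532 and chr12:55539633-55539732 (Nfkbia, minus strand), chr17:45866475-45866574 (Nfkbie, plus strand), chr7:19363441-19363470 (Relb, minus strand), chr11:23721521-23721550 (Rel, minus strand) and chr10:18891264-18891293 (Tnfaip3, minus strand). The stretches of Rel and Tnfaip3 each touch an annotated exon, and those of Nfkbia, Nfkbie and Relb touch none.
Nfkbia near the start: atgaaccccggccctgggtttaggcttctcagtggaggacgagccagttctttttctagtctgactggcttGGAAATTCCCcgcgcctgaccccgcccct
Nfkbia farther upstream: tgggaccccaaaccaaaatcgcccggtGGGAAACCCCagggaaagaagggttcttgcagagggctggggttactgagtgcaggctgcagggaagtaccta
Nfkbie: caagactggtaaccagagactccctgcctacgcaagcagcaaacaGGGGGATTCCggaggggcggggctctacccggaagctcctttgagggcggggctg
Relb: gtgagcagcgGGGGTTTTCCcattcccttt
Rel: ataaggctgcGGGGGTCCCCgtatgcaaat
Tnfaip3: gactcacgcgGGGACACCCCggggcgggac

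In these stretches the matches began 29 and 273 bases before the start in Nfkbia, 37 in Relb, 86 in Nfkbie, 97 in Tnfaip3 and 276 in Rel. The matches of Rel, of Tnfaip3 and the farther match of Nfkbia read as the consensus on either strand and were counted once each.

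The first question was how LPS/IFNγ changed the family in naïve Mϕ. All 10 transcripts rose in LPS against Ctrl, against 12.4% of all genes tested that were called higher. Both LPS samples lay above both Ctrl samples for each of the 10, as they did for 28.4% of all genes tested. The rises ran from 1.24 on the log2 scale (Rela) to 4.40 (Nfkbiz), with a median of 2.62, while the median over all genes tested was -0.01. The subunits had a median rise of 2.19 and the inhibitors of 2.67. A gene counted as called where its adjusted p in limma (Benjamini-Hochberg, over all genes tested) was under 0.05, and fold changes are on the scale of log2(normalized count + 1).

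Rela encodes p65, the subunit with a strong transactivation domain that is held ready in resting cells. Its normalized counts were 272 and 229 in Ctrl and 639 and 548 in LPS. The LPS samples were both higher, by 1.24 ± 0.22 on the log2 scale (SE; limma adjusted p = 0.00577), the smallest rise among the 10 genes. In efferocytic Mϕ it rose by 1.21 ± 0.22 (limma adjusted p = 0.00747), from 281 and 207 in Eff to 619.9 and 506 in LPSEff. This second call was lost without Eff replicate 2 (0.99, adjusted p = 0.0568) and without LPSEff replicate 1 (1.06, adjusted p = 0.0594).

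Nfkb1 encodes the precursor p105, from which the p50 subunit is made, and Nfkb2 encodes p100, the precursor of p52 and itself an inhibitor of dimers that contain RelB. Nfkb1 had 1110.1 and 1361 normalized counts in Ctrl and 6184 and 6139.7 in LPS. Nfkb2 had 805 and 1075 in Ctrl and 6375 and 6065 in LPS. Both rose with no overlap of the groups, Nfkb1 by 2.32 ± 0.18 (5.01-fold, limma adjusted p = 0.000117) and Nfkb2 by 2.74 ± 0.20 (6.68-fold, limma adjusted p = 9.07e-05).

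Rel encodes c-Rel, known in myeloid cells for its part in switching on Il12b, and Relb encodes the partner of p52 in the noncanonical pathway. Rel had 786 and 797 normalized counts in Ctrl, close to each other, and 2779 and 4705 in LPS. The LPS samples differed more from each other than those of any other gene of the family by SD (1361) relative to the mean (3742), and both lay above Ctrl, with a rise of 2.19 ± 0.28 (limma adjusted p = 0.00111). Relb had 442 and 401 in Ctrl and 1392 and 1786 in LPS, a rise of 1.90 ± 0.22 (limma adjusted p = 0.000676).

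Among the inhibitors, Nfkbia encodes IκBα, the classical inhibitor that is degraded and rebuilt in each round of activation. It had 1445 and 1219 normalized counts in Ctrl and 8109 and 8388 in LPS. It rose by 2.63 ± 0.21 (6.21-fold, limma adjusted p = 0.000137). Nfkbib and Nfkbie encode IκBβ and IκBε, which also hold dimers in the cytoplasm. Nfkbib had 190.4 and 285 in Ctrl and 1301 and 1542 in LPS, a rise of 2.60 ± 0.25 (limma adjusted p = 0.000310). Nfkbie had 253 and 352 in Ctrl and 1599.9 and 2252 in LPS, a rise of 2.67 ± 0.24 (limma adjusted p = 0.000237). The 95% intervals of the 3 rises overlapped, and their point estimates lay within 0.1 of each other.

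The largest rises were those of Nfkbiz and Tnfaip3. Nfkbiz encodes IκBζ, an atypical nuclear IκB that acts as a cofactor for secondary response genes, and Tnfaip3 encodes A20, a ubiquitin-editing enzyme that shuts off signalling upstream of IKK. Nfkbiz had 139 and 106 normalized counts in Ctrl and 2928 and 2277 in LPS. Tnfaip3 had 775 and 644 in Ctrl and 11124 and 8369.8 in LPS. The LPS samples lay far above both Ctrl samples in each case, with a 21.1-fold rise of Nfkbiz (log2 4.40 ± 0.32, limma adjusted p = 9.43e-05) and a 13.6-fold rise of Tnfaip3 (log2 3.77 ± 0.29, limma adjusted p = 0.000107). The 95% interval of Nfkbiz (3.65 to 5.14) lay above that of Nfkb2 (2.28 to 3.20) and overlapped that of Tnfaip3 (3.11 to 4.43).

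**Figure D1:**
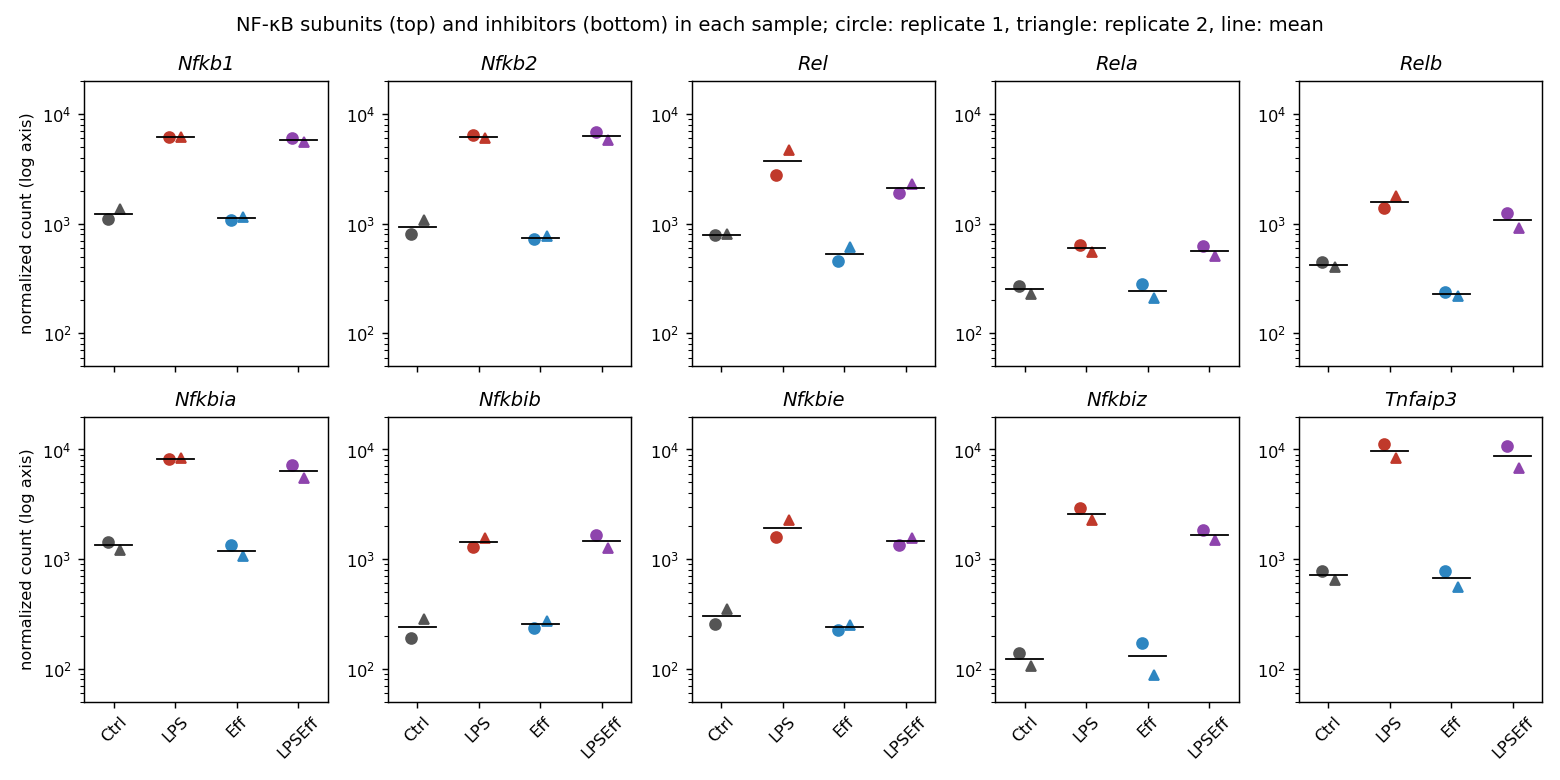
Normalized counts (log axis) of the 5 subunits (top row) and 5 inhibitors (bottom row) in Ctrl, LPS, Eff and LPSEff, with a circle for replicate 1, a triangle for replicate 2 and a line at the mean. In every panel all 4 stimulated samples lie above all 4 unstimulated ones, and Relb and Rel lie lower in Eff than in Ctrl in both samples.

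The second comparison asked whether LPS/IFNγ acted on the family in efferocytic Mϕ. All 10 genes rose in LPSEff against Eff, against 10.7% of all genes tested. Both LPSEff samples lay above both Eff samples for each of the 10, and for 29.5% of all genes. The median rise was 2.45, beside a median over all genes of 0.01. The ends of the order were the same as in naïve Mϕ, with Rela at 1.21 and Nfkbiz at 3.74 ± 0.32 (limma adjusted p = 0.000181). Tnfaip3 rose by 3.70 ± 0.29, from 777 and 555 to 10793 and 6736 normalized counts. Nfkb2 rose by 3.08 ± 0.20, from 719 and 769 to 6892 and 5778, and Nfkb1 by 2.38 ± 0.18, from 1073 and 1156 to 6061 and 5519. Nfkbie (2.59), Nfkbib (2.50), Nfkbia (2.41), Relb (2.24) and Rel (1.99) rose by amounts between these.

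An interaction term compared the LPS/IFNγ effect in efferocytic Mϕ with that in naïve Mϕ. None of the 10 genes passed it in limma, which called 0.00% of all genes, nor in edgeR (0.00%) or DESeq2 (0.00%), and 0 of the 10 had an unadjusted p under 0.05, against 1.91% of all genes. The point estimates ran from -0.66 for Nfkbiz (95% interval -1.71 to 0.39) to 0.35 for Nfkb2 (-0.31 to 1.00) and 0.34 for Relb (-0.36 to 1.04). These intervals leave room for differences of more than 2-fold for Nfkbiz and of about 2-fold for Relb, so that 2 samples per group could not show that the responses were alike.

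The third comparison, Eff against Ctrl, asked what efferocytosis did without a stimulus. None of the 10 genes passed the test in limma (0.251% of all genes were called in either direction), in edgeR (0.0858%) or in DESeq2 (1.27%). At an unadjusted p under 0.05, limma gave 1 of the 10, Relb, against 6.13% of all genes. The 2 Eff samples lay below the 2 Ctrl samples for 4 of the 10 genes, Nfkb2, Rel, Relb and Nfkbie, against 17.8% of all genes tested. They lay above them for 0 of the 10, against 2663 of the 16309 genes tested. The median log2 fold change of the 10 genes was -0.15, beside -0.01 over all genes.

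Relb had the largest difference in this comparison. Its normalized counts were 442 and 401 in Ctrl and 236 and 217 in Eff, a difference of -0.89 ± 0.22 on the log2 scale (limma adjusted p = 0.273). Both Eff samples were lower than both Ctrl samples, by -0.90 between the samples numbered 1 and -0.89 between those numbered 2. Same-numbered samples deviated together across all genes, and with the replicate number as a block in limma Relb passed the test as lower (adjusted p = 0.0263). It was the only one of the 10 genes to do so, against 0.975% of all genes that were called lower with the block and 1.70% called higher. Rel was at 451 and 616 in Eff, against 786 and 797 in Ctrl (-0.59 ± 0.28, limma adjusted p = 0.869, and 0.117 with the block).

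For the remaining genes the difference in Eff against Ctrl ran from -0.32 (Nfkb2 and Nfkbie) to 0.13 (Nfkbib), and each 95% interval held 0. That of Nfkbia was -0.16 (-0.65 to 0.33), that of Rela -0.05 (-0.56 to 0.47) and that of Tnfaip3 -0.11 (-0.76 to 0.55). The values in Eff were 1335 and 1059 for Nfkbia, 236 and 275 for Nfkbib, 225 and 252 for Nfkbie and 173 and 87.5 for Nfkbiz. The Nfkbiz samples in Eff lay on either side of those in Ctrl, and those of Nfkbie lay just below them.

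The fourth comparison, LPSEff against LPS, asked whether efferocytosis changed the level of the family under stimulation. None of the 10 passed in limma (0.773% of all genes were called), in edgeR (0.773%) or in DESeq2 (2.26%). At an unadjusted p under 0.05 limma gave 2 of the 10, Rel and Relb, against 10.3% of all genes. The 2 LPSEff samples lay below the 2 LPS samples for 6 of the 10 genes, Nfkb1, Rel, Relb, Nfkbia, Nfkbie and Nfkbiz, against 17.0% of all genes tested. With samples rescaled to equal totals it was 5 of the 10, for which no share over all genes was counted. The median log2 fold change of the 10 genes was -0.28, beside -0.00 over all genes.

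Rel had the largest difference under stimulation. Its normalized counts were 2779 and 4705 in LPS and 1902 and 2307 in LPSEff, a difference of -0.79 ± 0.28 (1.73-fold lower, limma adjusted p = 0.353). Both LPSEff samples lay below both LPS samples. With the replicate block Rel passed as lower in limma (adjusted p = 0.0220), the only one of the 10, against 2.65% of all genes called lower with the block and 4.32% called higher. Count tests with the block, added after the values had been seen, called Rel in edgeR (adjusted p = 0.0167) and DESeq2 (adjusted p = 0.00169). Of all 16309 genes tested, edgeR with the block called 518 lower and 715 higher, and DESeq2 with the block 466 and 606.

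Nfkbiz had 1826 and 1492 normalized counts in LPSEff, against 2928 and 2277 in LPS (-0.64 ± 0.32, limma adjusted p = 0.570, and 0.0568 with the block). The same 2 count tests with the block called it lower (edgeR adjusted p = 0.0363, DESeq2 adjusted p = 0.0176), beside 518 and 466 of all 16309 genes. Both numbered pairs moved alike, by -0.68 and -0.61. Relb had 1247 and 920.1 in LPSEff, against 1392 and 1786 in LPS (-0.56 ± 0.22, limma adjusted p = 0.416, and 0.0971 with the block), and its numbered pairs were unequal, at -0.16 and -0.96.

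Nfkbia had 7178 and 5533 normalized counts in LPSEff (-0.39, 95% interval -0.88 to 0.10), with both samples under those of LPS. Nfkbie had 1336 and 1558 (-0.40, -0.95 to 0.16). The differences of Nfkb1 (-0.09), Nfkb2 (0.02), Rela (-0.08), Nfkbib (0.03) and Tnfaip3 (-0.18) were smaller, and their intervals held 0.

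**Figure D2:**
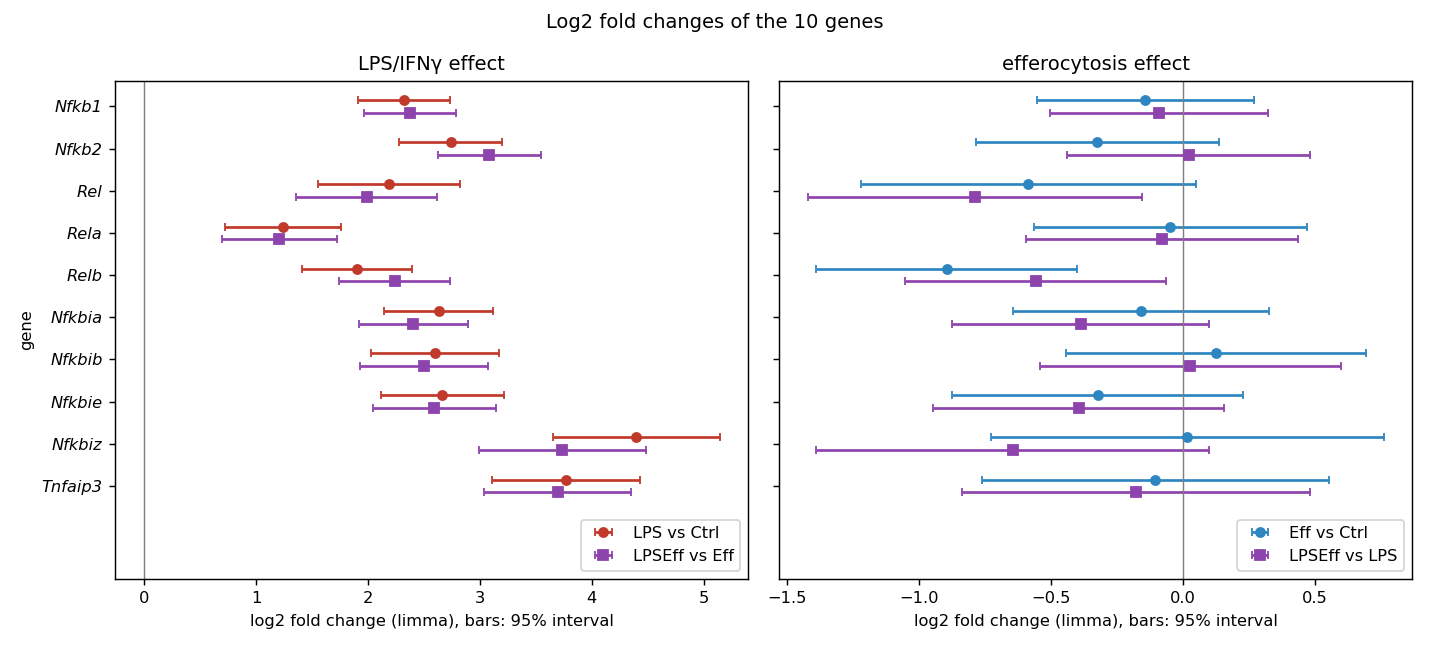
Log2 fold changes of the 10 genes in limma, with 95% intervals as bars, for LPS/IFNγ in naïve and efferocytic Mϕ (left) and for efferocytosis in unstimulated and stimulated Mϕ (right, on a narrower axis). On the left every interval lies above 0. On the right only those of Relb (both comparisons) and Rel (LPSEff vs LPS) lie below 0, before adjustment for all genes.

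Markers of other cell types differed between the same groups. The 6 dendritic cell markers (Flt3, Zbtb46, Ccr7, Itgax, Clec9a and Dpp4) summed to 4511 and 9632 normalized counts in Ctrl and to 2653 and 6039 in Eff, and to 10542 and 23474 in LPS and 8220.3 and 12602 in LPSEff. Most of each sum was Ccr7, at between 1151 and 14409, and Itgax, at between 1317 and 6898. The sum was higher in replicate 2 than in replicate 1 in each of the 4 groups. The level of Rel was likewise higher in replicate 2 in each group, and that of Relb was higher in replicate 2 in LPS and lower in replicate 2 in the other 3 groups. With the replicate block 2 of the 5 tested markers were lower in Eff than in Ctrl (Itgax and Dpp4), beside 0.975% of all genes. In LPSEff against LPS 2 were lower with the block (Ccr7 and Flt3), beside 2.65% of all genes. Without the block limma called 0 of the 5 in either comparison, beside 0.251% and 0.773% of all genes. Clec9a reached at most 13 reads. The 12 fibroblast markers summed to 1539 and 1365 in Ctrl and 4475 and 6818 in Eff, and to 6015 and 3272 in LPS and 12304 and 9751 in LPSEff. Lox alone was at 368 and 165 in Ctrl and at 3620 and 1335 in LPS. Fn1 alone was at 986 and 822 in Ctrl and 2902 and 3726 in Eff, and at 1482 and 969 in LPS and 6574 and 4766 in LPSEff. Of the 11 tested, limma called 4 higher in LPS than in Ctrl (Lox, Pdgfrb, Col5a1 and Fbn1), beside 12.4% of all genes. It called 6 higher in Eff than in Ctrl (Col1a1, Col3a1, Fn1, Fbn1, Pdgfra and Col1a2), beside 0.251% of all genes called in either direction. The 7 neutrophil markers summed to 973 and 643 in Ctrl and 1399 and 1058 in Eff, and to 1534 and 1745 in LPS and 2176 and 1612 in LPSEff. Among them S100a8, which encodes a subunit of calprotectin, was called higher in Eff than in Ctrl (1.24 ± 0.17, limma adjusted p = 0.0402, 0.0571 in edgeR). In LPSEff against LPS it did not pass without the block (0.77 ± 0.17, limma adjusted p = 0.114). With the block limma called it higher there (adjusted p = 0.00882). It was the only 1 of the 5 tested neutrophil markers called in either case. Over all genes, 0.251% were called in the first case in either direction, and 4.32% were called higher in the second. S100a9 did not follow it, with means of 424 in Ctrl and 423 in Eff, and 829 in LPS and 702 in LPSEff. The part of any of these in the results for Rel, Relb and Nfkbiz was not tested.

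Levels were compared between genes per kilobase of canonical transcript, since a longer transcript gives more reads. In Ctrl, Nfkbia stood first at 844 ± 101 normalized counts per kb (SD, n = 2), followed by Nfkb1 at 263 ± 37.7 and Nfkbib at 174 ± 48.9. From Nfkbib down to Rel, through Nfkb2, Relb, Nfkbie and Tnfaip3, each gene overlapped its neighbour. Rela was at 92.3 ± 11.3, and Nfkbiz was last at 30.3 ± 5.7. In LPS, Nfkbia was again first at 5227 ± 125 per kb. Tnfaip3 had moved from rank 7 to rank 2, at 1411 ± 282, with samples on either side of Nfkb1 (1309.9 ± 6.6), and Nfkbiz from rank 10 to rank 7 at 643 ± 114. Rela was last at 218.5 ± 23.6.

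In Eff the order began with Nfkbia (758 ± 124), Nfkb1 (237 ± 12.5) and Nfkbib (186 ± 20.0) as in Ctrl. Relb had moved from rank 5 to rank 9 at 66.6 ± 4.0 per kb, where its values overlapped those of Rel (68.8 ± 15.0). In LPSEff the first 7 ranks were those of LPS, from Nfkbia (4028 ± 737) to Nfkbiz (410.3 ± 58.4). Rel and Relb had changed places with overlapping values, and Rela was last at 207 ± 29.5. Lengths from the union of all annotated exons, an alternative added after the values had been seen, put Nfkb1 at rank 5 in place of 2 in Ctrl. They put Rel at rank 3 in place of 8 in Ctrl and at rank 5 in place of 8 in LPS. Nfkbia stayed first in all 4 groups.

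**Figure D3:**
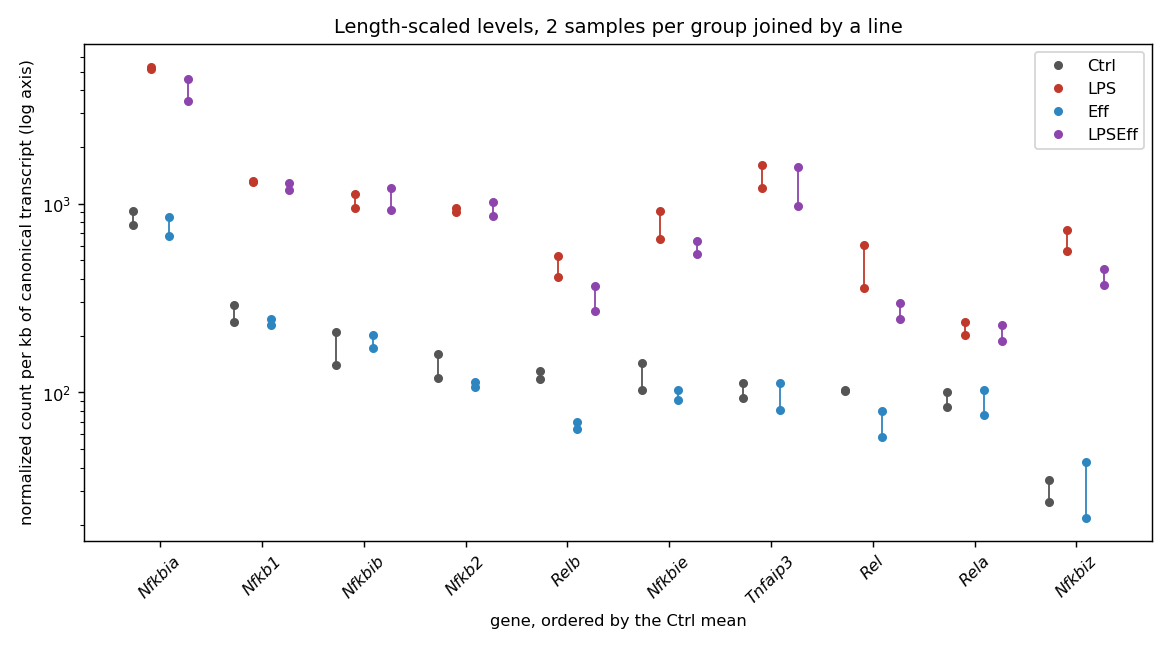
Normalized counts per kb of canonical transcript (log axis), with the 2 samples of a group joined by a line and genes ordered by their Ctrl mean. Nfkbia is highest in each group, Tnfaip3 and Nfkbiz climb past other genes with stimulation, and Rela is lowest in LPS and LPSEff.

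Ratios of reads within a sample do not depend on how samples were scaled, and they show how the make-up of the family shifted. Against Rela, the reads of Nfkbiz stood at 0.510 and 0.465 in Ctrl and 4.58 and 4.15 in LPS, and at 0.614 and 0.422 in Eff and 2.95 and 2.95 in LPSEff. Every stimulated sample was above every unstimulated one, and both LPSEff samples were below both LPS samples. The ratio of Nfkbia to Rela rose from between 4.74 and 5.32 in the unstimulated samples to between 10.9 and 15.3 in the stimulated ones. That of Tnfaip3 to Nfkbia, the enzyme against the classical inhibitor, was between 0.525 and 0.582 without stimulation and between 0.998 and 1.504 with it.

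Relb to Rela was 1.62 and 1.75 in Ctrl and 0.838 and 1.04 in Eff, without overlap, and 2.18 and 3.26 in LPS and 2.01 and 1.82 in LPSEff, also without overlap. Relb to Nfkb2, the 2 products of which pair in the noncanonical pathway, was between 0.159 and 0.295 in the stimulated samples and between 0.282 and 0.548 in the unstimulated ones, and 3 of the 4 stimulated samples lay below all unstimulated ones. The exception was LPS replicate 2 at 0.295, which lay above Eff replicate 2 at 0.282. Rel to Nfkb1 stood at 0.708 and 0.586 in Ctrl, at 0.449 and 0.766 in LPS, at 0.421 and 0.533 in Eff and at 0.314 and 0.418 in LPSEff. Here the efferocytic samples lay below the naïve ones of the same stimulation, and Ctrl and LPS overlapped.

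**Figure D4:**
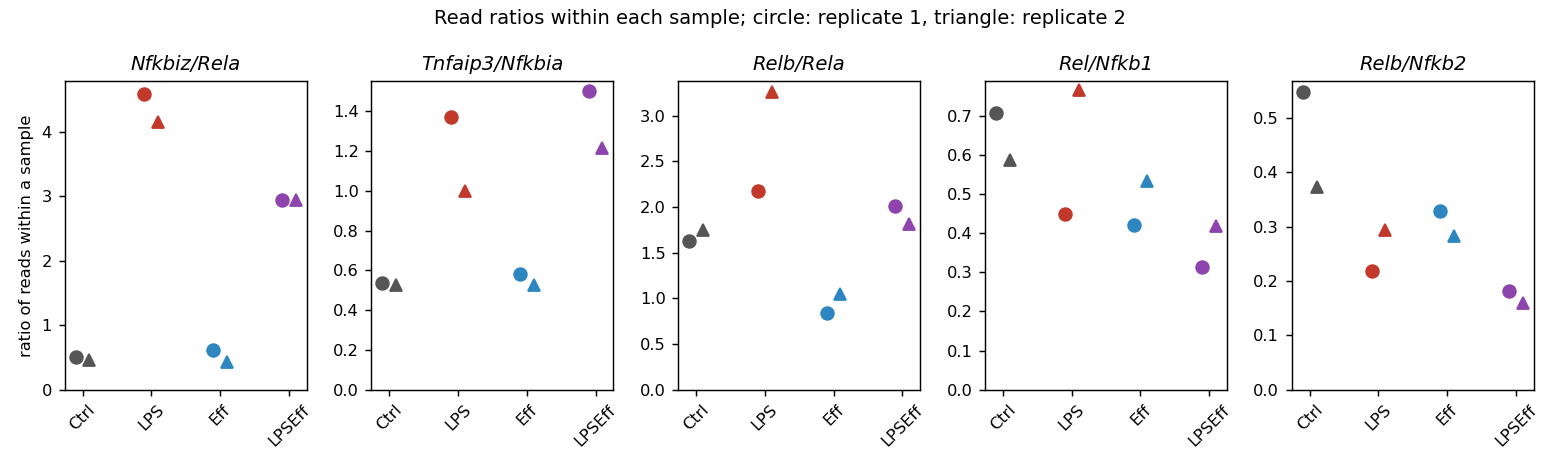
Ratios of reads of a pair of genes within each sample, by group, with a circle for replicate 1 and a triangle for replicate 2. Nfkbiz/Rela and Tnfaip3/Nfkbia separate stimulated from unstimulated samples, and Relb/Rela is lower in Eff (0.838 and 1.04) than in Ctrl (1.62 and 1.75).

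The other genes of the pathway were taken from 6 lists with 71 genes, all of them tested. In LPS against Ctrl 49 rose, 2 fell and 20 did not pass in limma, beside 12.4% of all genes called higher and 11.6% called lower, with a median of 1.62. Rescaling to equal totals gave 42 higher and 4 lower of the 71, beside 1420 higher and 4315 lower of all genes. In LPSEff against Eff 48 rose, 2 fell and 21 did not pass, beside 10.7% higher and 8.95% lower, with a median of 1.53. With equal totals these were 38 and 8 of the 71, and 1216 and 4362 of all genes. The lists were chosen from known roles with results of these data in view, so that their direction is a description.

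Of the 11 IKK and upstream kinases, which carry the signal to IκB, 7 rose and 1 fell in LPS against Ctrl. Ikbke, an IKK-related kinase, rose by 1.82 ± 0.39 (limma adjusted p = 0.0112), Map3k8, which binds p105, by 1.71 ± 0.33, and Map3k14, the kinase of the noncanonical pathway, by 1.29 ± 0.32 (adjusted p = 0.0207). Tab1, an adapter of the kinase TAK1, was called lower (-0.72, limma adjusted p = 0.0451). That call was lost in edgeR (adjusted p = 0.0635), in DESeq2 (adjusted p = 0.115), with quantile normalization, with only the 2 groups in the fit, with all genes above 0 and without any 1 of the 8 samples. The call of Ikbke was lost without Ctrl replicate 2 or LPS replicate 1, and that of Map3k14 without either Ctrl sample or with only the 2 groups in the fit.

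Of the 13 genes of the TLR4 receptor complex and its adapters, 5 rose and 1 fell. Cd14, the coreceptor that hands LPS to TLR4, rose by 3.15 ± 0.29, the ubiquitin ligase Peli1 by 2.99 ± 0.20 and Irak3, an inhibitory kinase-like protein of the pathway, by 2.29 ± 0.44, a call that was lost without Ctrl replicate 2. Tlr4 itself had 1439.6 and 1416 normalized counts in Ctrl and 939 and 823 in LPS, and was called lower (-0.70 ± 0.21, limma adjusted p = 0.0445). That call was lost with only the 2 groups in the fit, with all genes above 0 and without any 1 of the Ctrl, LPS or Eff samples (adjusted p between 0.0615 and 0.163). In LPSEff against Eff it was at 824 and 1133, against 1184 and 1455, and did not pass (-0.44, adjusted p = 0.191).

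Of the 12 genes of TNF receptor family signalling 9 rose and 0 fell in limma. They included Cd40, a receptor that also feeds the noncanonical pathway (6.40 ± 0.41), the adapter Traf1 (3.12 ± 0.20) and the ubiquitin ligase Birc3 (2.53 ± 0.27). Of 13 genes of ubiquitin chain assembly and removal 6 rose, with Zc3h12a (3.24 ± 0.33), an RNase that also acts on ubiquitin signalling, Rnf31 (2.21 ± 0.30), a subunit of the linear ubiquitin ligase, and the A20 partner Tnip3 (1.90 ± 0.34) at the top. Both further IκB family members rose in naïve Mϕ, Bcl3 by 2.50 ± 0.41 and Nfkbid by 1.65 ± 0.26. In efferocytic Mϕ Nfkbid did not pass without the block (0.83, limma adjusted p = 0.0615) and passed with it (adjusted p = 0.0142).

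All 20 target effectors, the cytokines, enzymes and surface proteins that NF-κB is known to induce, rose in LPS against Ctrl and in LPSEff against Eff, with medians of 5.08 and 4.75. The largest were Nos2, the inducible nitric oxide synthase (9.60 ± 0.27), the cytokine Il6 (9.33 ± 0.24) and Ptgs2, the inducible prostaglandin synthase (8.91 ± 0.18).

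Between efferocytic and naïve Mϕ, 1 of the 71 genes passed in Eff against Ctrl and 0 in LPSEff against LPS in limma. Over all genes the shares were 0.251% and 0.773%. Ptgs2 rose from 83.8 and 86.7 in Ctrl to 235 and 279 in Eff (1.58 ± 0.18, limma adjusted p = 0.0229). That call was lost in edgeR (adjusted p = 0.0746), with only the 2 groups in the fit (adjusted p = 0.102), without any 1 of the Ctrl or Eff samples and without either LPSEff sample (adjusted p between 0.0625 and 0.260). With the replicate block 3 of the 71 were higher and 8 lower in Eff against Ctrl, beside 1.70% and 0.975% of all genes, the higher ones being Ptgs2, Cxcl1 and Ikbkg and the lower ones Il12b, Gadd45b, Cd83, Cd40, Traf1, Ccl5, Icam1 and Ikbke. In LPSEff against LPS 2 were higher and 7 lower with the block, beside 4.32% and 2.65% of all genes, the higher ones being Ikbkg and Rnf11 and the lower ones Ccl3, Il12b, Cd83, Peli1, Tnf, Icam1 and Ikbke. Ikbkg, which encodes the regulatory IKK subunit NEMO, had 470.3 and 647 normalized counts in Ctrl and 848 and 1126 in Eff, and 967 and 1012 in LPS and 1989 and 1745 in LPSEff. Its differences were 0.82 ± 0.22 (limma adjusted p = 0.370, and 0.0297 with the block) and 0.91 ± 0.22 (0.155, and 0.0117 with the block). Without the block edgeR called 0 of the 71 in either comparison, beside 0.0858% and 0.773% of all genes. DESeq2 called 3 and 4, beside 1.27% and 2.26%. At an unadjusted p under 0.05 limma gave 16 and 10, beside 6.13% and 10.3%.

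**Figure D5:**
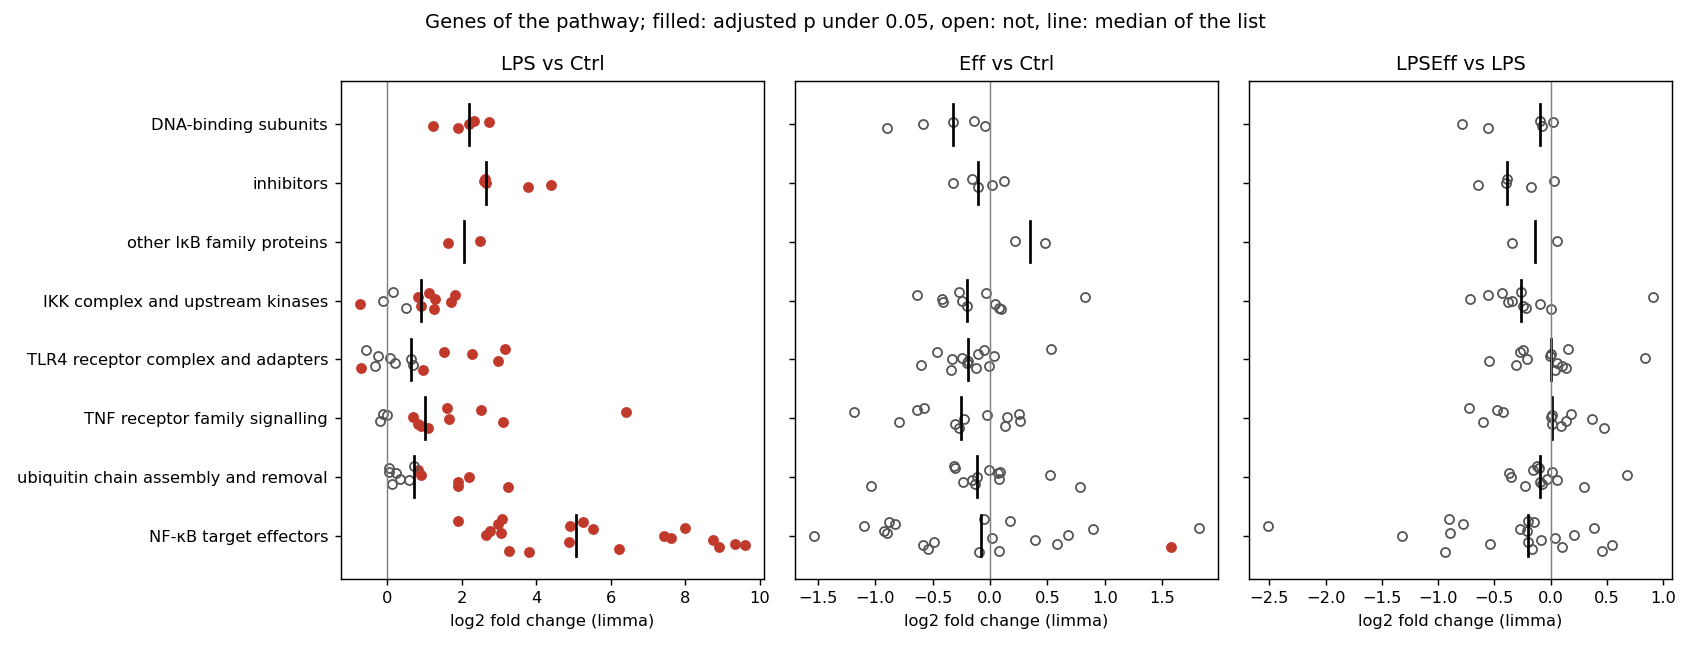
Log2 fold changes in limma of the subunits, the inhibitors and the 6 further lists in LPS vs Ctrl, Eff vs Ctrl and LPSEff vs LPS, each panel with its own horizontal scale. Filled points passed at an adjusted p under 0.05 and lines mark list medians. With stimulation most lists lie to the right, with target effectors at a median of 5.08, and in the efferocytosis panels the only filled point is Ptgs2.

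The 3 genes whose profile over the 8 samples was most like the mean z-score of the 10 genes, by Pearson's r of log2 values, were Psd, Rnf19b and N4bp1 (r = 0.999, 0.998 and 0.998). Psd lies on the opposite strand beside Nfkb2 and shares 1933 exonic bases with it, and the setting for strand in the counting beyond its default is not given in the sources used here, so reads of the 2 genes may not have been told apart. Its level rose from 93.3 and 90.8 normalized counts in Ctrl to 305 and 319.9 in LPS. Rnf19b was at 646 and 758 in Ctrl and at 4519 and 5133 in LPS, and N4bp1 at 839.7 and 799.8 in Ctrl and 2350.1 and 2371 in LPS. The 4 stimulated and 4 unstimulated samples form separate clusters, so the r describes mainly that split.

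None of the 10 genes shares exonic bases with a gene on its own strand. On the opposite strand, overlaps with annotated exons were 3014 bases for Nfkb2, 694 for Nfkbib, 270 for Nfkb1, 185 for Rela, 141 for Nfkbia and 110 for Tnfaip3, and none for Rel, Relb, Nfkbie and Nfkbiz.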

How the data were processed

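The authors depleted rRNA, used cutadapt for adapters, Bowtie2 against residual rRNA, STAR for mapping to mm39 and HTSeq with default settings for counting. Tool versions and the annotation used for counting are not given in the sources used here. The signal they deposited is a normalized count, a read count divided by a size factor per sample. In each sample 100% of values were whole multiples of the smallest (tolerance 0.01), which gave recovered reads. By themselves such counts cover counting error only, and edgeR and DESeq2 add an estimate of the spread between samples.

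Genes were named from GENCODE M39 on GRCm39. limma 3.58.1 (R 4.3.3) with a trend was fitted to log2(normalized count + 1) of 16309 genes with a mean of at least 10, with 4 group means and Benjamini-Hochberg adjustment over all genes. This main fit left out the replicate number, so its calls and standard errors are unpaired. Same-numbered samples deviated together in all pairs of groups (r from 0.404 to 0.595). The numbers, taken from the sample names, were used as a block in an alternative fit. The replicate block is given where it changed a printed call of a single gene. Alternatives included edgeR 4.0.16 and DESeq2 1.42.0 on recovered reads, and tests were checked on simulated data. An exact permutation test of 2 against 2 samples cannot go below p = 0.333. Genes, lists and tests were chosen with earlier results of these data known. Named were the 10 genes, for each list the 3 called genes with the largest change in LPS vs Ctrl, every listed gene called for efferocytosis without the block, and the 3 genes with the most similar profile. Tlr4, Tab1, S100a8, other markers named singly and the list genes called for efferocytosis only with the block were named after their values were seen.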

Additional observations from a re-analysis of the deposited data

How the results depend on the processing

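All 10 genes were called higher in LPS against Ctrl under all 20 alternatives, and 9 or 10 in LPSEff against Eff, Rela being the one lost without Eff replicate 2 or LPSEff replicate 1. None of the 10 was called in the interaction under any alternative run for it. With the replicate block the count of called genes among the 10 went from 0 to 1 in Eff against Ctrl (also in edgeR and DESeq2 with the block) and from 0 to 1 in LPSEff against LPS (2 in edgeR and DESeq2 with the block), and it changed no other call of the 10. Of the 71 pathway genes, the replicate block called 11 in Eff against Ctrl (8 in edgeR and 14 in DESeq2 with the block) in place of 1, and 9 in LPSEff against LPS (11 and 12) in place of 0. Of all 16309 genes, edgeR with the block called 270 higher and 159 lower in Eff against Ctrl, and 715 and 518 in LPSEff against LPS. DESeq2 with the block called 319 and 196 in the first comparison, and 606 and 466 in the second. Without the block the counts were 0 in edgeR, 3 in DESeq2 and 0 with only the 2 groups compared in Eff against Ctrl, and 4 in DESeq2 in LPSEff against LPS. Leaving out 1 sample gave 0 to 1 in Eff against Ctrl, and in LPSEff against Eff 33 to 52 in place of 50, the lowest without LPSEff replicate 1. A sample alone in its group is there assumed to vary like the others.

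Small uncalled differences changed sign. In LPSEff against LPS, Nfkb2 went to -0.0439 with quantile normalization and -0.0155 with equal totals, and Nfkbib to -0.0088 with equal totals. Leaving out 1 sample gave, in that comparison, -0.1058 to 0.1484 for Nfkb2, -0.2248 to 0.0665 for Rela, -0.1683 to 0.2243 for Nfkbib and -0.5184 to 0.1616 for Tnfaip3. In Eff against Ctrl it gave -0.2891 to 0.0044 for Nfkb1, -0.2661 to 0.1711 for Rela, -0.3261 to 0.0078 for Nfkbia, -0.1639 to 0.4160 for Nfkbib, -0.4704 to 0.5017 for Nfkbiz and -0.3468 to 0.1373 for Tnfaip3. Rescaling to equal totals put the median of all genes at -0.40 in LPS against Ctrl and -0.44 in LPSEff against Eff, in place of -0.01 and 0.01, and there all 10 genes were still called higher. Depth limits low genes most, and 2 samples per group limit all of these tests. The added lengths and count tests with the block were chosen after seeing the data.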
